A study of Mus musculus with 3 samples.

Results

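The genes described here tell which transmitter a neuron uses and which interneuron class it belongs to. They were 10 genes chosen by name, of 22180 genes measured, and the array carried at least 1 probe set with that symbol alone for each of the 10. All 3 arrays of the series belong to 1 group. Each held total RNA from neurospheres, free-floating colonies grown from dissociated precursors of the ventricular-subventricular zone (V-SVZ), a germinal layer along the lateral ventricles that keeps neural stem cells after birth. The donors were wild-type CD1 mice labelled postnatal day 8, with day 7 or 8 given in the growth protocol. The cultures were kept for 7 days at a starting density of 10 cells per microlitre with EGF at 20 ng/ml and FGF at 10 ng/ml in the medium. Pups were cultured independently per the protocol, but the labels do not tie arrays to pups. Any p-value therefore covers only how far these 3 arrays spread, and that spread may be technical.

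Neurons of the GABAergic type make their transmitter from glutamate with glutamate decarboxylase and load it into synaptic vesicles with a dedicated transporter. Glutamatergic neurons use vesicular glutamate transporters in its place, and dopaminergic neurons first convert tyrosine with tyrosine hydroxylase. In the postnatal brain, V-SVZ precursors give rise to interneurons of the olfactory bulb, nearly all of them GABAergic, and subsets of these carry tyrosine hydroxylase, calretinin or calbindin. Parvalbumin and somatostatin are best known as marks of cortical, hippocampal and striatal interneuron classes.

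Of the 10 genes, the GABA synthesis genes Gad1 and Gad2, the vesicular GABA transporter gene Slc32a1 and the parvalbumin gene Pvalb were above the reference level. The vesicular glutamate transporter genes Slc17a6 and Slc17a7 and the calbindin and calretinin genes lay below it on every array. The tyrosine hydroxylase gene Th and the somatostatin gene Sst sat just over it on every array without passing the test. Gad2 was the only gene of the 10 whose call held under all 15 settings tried.

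Since the series has a single group, signals were compared with those of genes that neural cultures should not use. The reference level of an array was taken at the 95th percentile of its 1405 olfactory and vomeronasal receptor probe sets, genes that serve smell in the nose. It was 5.63, 5.53 and 5.71 on arrays 1, 2 and 3 on the log2 scale. A gene was called above it when limma's one-sided moderated test of its margin (its log2 signal minus the reference level) gave an adjusted p under 0.05 over all genes. By this rule 4 of the 10 genes were above, against 13104 of 22180 genes (59.1%) and 54 of 1394 receptor genes (3.87%). The receptor share was bound to be low, because the level was set on these same receptors, so it measures no error rate. The median margin was 0.08 over the 10 genes and 0.76 over all genes. Probes bind with unequal strength, so no gene's signal is ordered against that of another, and the number of arrays limits the precision.

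**Figure D1:**
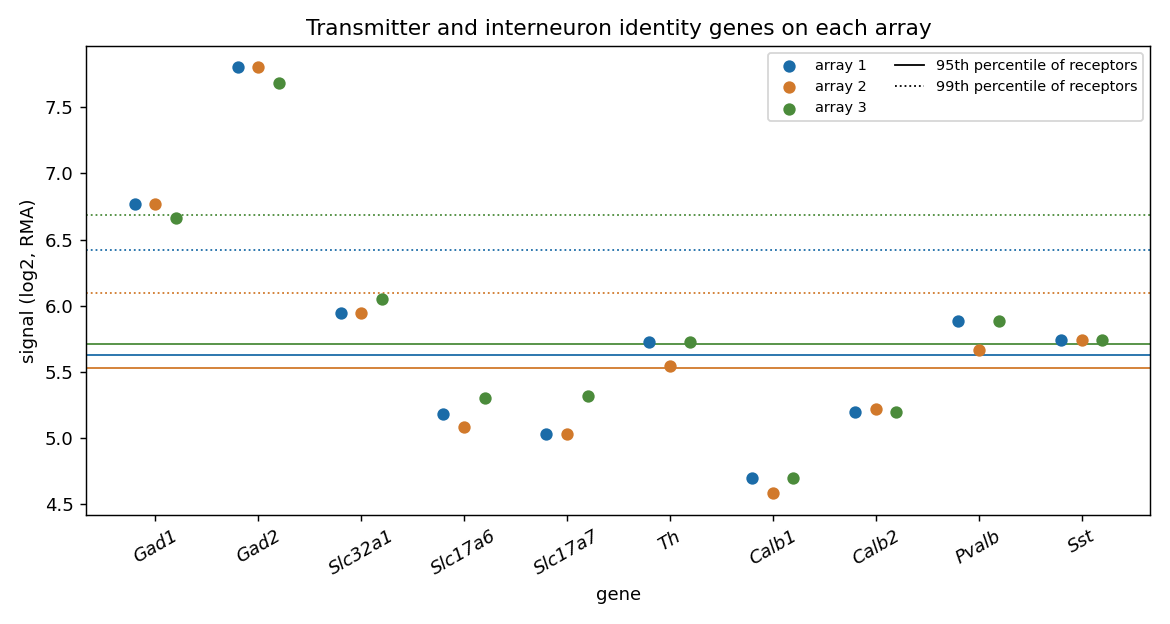
Log2 signal (vertical axis) of the 10 genes (horizontal axis) on each of the 3 arrays, 1 point per array, with the 95th (solid) and 99th (dotted) percentile of the receptor probe sets of each array as lines in that array's colour. Gad2 lies above all lines, Gad1 above all solid lines, and Slc17a6, Slc17a7, Calb1 and Calb2 below all solid lines.

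Gad1 and Gad2 encode the 2 forms of glutamate decarboxylase, the enzyme that makes GABA. Gad2 had log2 signals of 7.80, 7.80 and 7.68 on arrays 1, 2 and 3. All 3 values were higher than the signals of at least 99.86% of the receptor probe sets of the same array. The mean margin of Gad2 was 2.14 ± 0.15 (SD, n = 3), and its adjusted p was 0.00226 in limma's fit with each gene's own variance. With the spread pooled over genes the p was far smaller, but that fit had infinite prior degrees of freedom and so gave the spread of the single gene no part. Other limma p-values given here come from fits that share the spread between genes, unless the gene's own variance is named.

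Gad1 had log2 signals of 6.77, 6.77 and 6.66. Its mean margin was 1.11 ± 0.15 (SD, n = 3), with an adjusted p of 0.00613 in limma's fit with each gene's own variance. Arrays 1 and 2 were level and array 3 was slightly lower, as for Gad2. Against the 99th percentile of the receptors, which was 6.42, 6.09 and 6.69, Gad1 was higher on 2 of the 3 arrays and lower on array 3. Its margin over that stricter level was 0.34 and its limma adjusted p was 0.130, so the call of Gad1 ended there, while that of Gad2 held (margin 1.36). In RNA from whole cultures, fewer cells of a type and less RNA per cell cannot be told apart.

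Slc32a1 encodes the vesicular GABA transporter, which fills synaptic vesicles of inhibitory neurons. It was the only one of the 10 genes with more than 1 probe set. The probe set with the higher mean had 5.95, 5.95 and 6.05, a margin of 0.36 ± 0.050 (SD, n = 3). Its limma adjusted p was 0.00677 with the gene's own variance and 4.55e-06 with the spread pooled over genes. The other probe set had 5.40, 5.40 and 5.42, below the reference level on every array. The probe sets therefore stood on opposite sides of the reference level, and with the median over both the margin was 0.07 and the call ended (limma adjusted p = 0.294). Neither exceeded the 99th percentile on any array.

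The vesicular glutamate transporter genes Slc17a6 and Slc17a7 were not above the reference level. Slc17a6, whose product is the vesicular glutamate transporter of many subcortical neurons, had 5.18, 5.08 and 5.31. Slc17a7, whose product serves most cortical and hippocampal excitatory neurons, had 5.03, 5.03 and 5.32. All values of both genes lay below the reference level of their array, by 0.40 to 0.59 for Slc17a7 and by 0.41 to 0.45 for Slc17a6. Between 85.5% and 89.9% of the receptor probe sets had a lower signal. A signal in this range says that expression was not detectable over unspecific signal on these arrays, not that it was absent.

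Th, the gene of the rate-limiting enzyme of dopamine synthesis, had 5.73, 5.54 and 5.73. Each value exceeded the reference level of its array, by 0.10, 0.01 and 0.01. The mean margin of 0.04 ± 0.050 (SD, n = 3) did not pass the test (limma adjusted p = 0.481, or 0.239 with the gene's own variance). Sst, the gene of the inhibitory peptide somatostatin, had exactly 5.74 on each array. Its margin of 0.12 ± 0.090 (SD, n = 3) did not pass either (limma adjusted p = 0.0981, or 0.125 with the gene's own variance). The spread of that margin is that of the reference level, since the signal itself did not vary. Both genes were called with the 90th percentile as the reference (margins 0.40 and 0.48), and both lay below the 99th percentile on every array.

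The 3 calcium-binding protein genes stood on different sides of the reference level. Pvalb, the gene of the calcium buffer of fast-spiking interneurons, had 5.88, 5.66 and 5.88, all above the reference level, by 0.26, 0.13 and 0.17. Its margin was 0.19 ± 0.064 (SD, n = 3), with a limma adjusted p of 0.0135, or 0.0333 with the gene's own variance. The call ended without array 1 (limma adjusted p = 0.275), and no value exceeded the 99th percentile. Calb2, the gene of calretinin, had 5.20, 5.22 and 5.20, with a mean margin of -0.42. Calb1, the gene of calbindin, had 4.70, 4.58 and 4.70, with a mean margin of -0.96. Both are marks of olfactory bulb interneuron subsets, and both were below the reference level on every array.

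**Figure D2:**
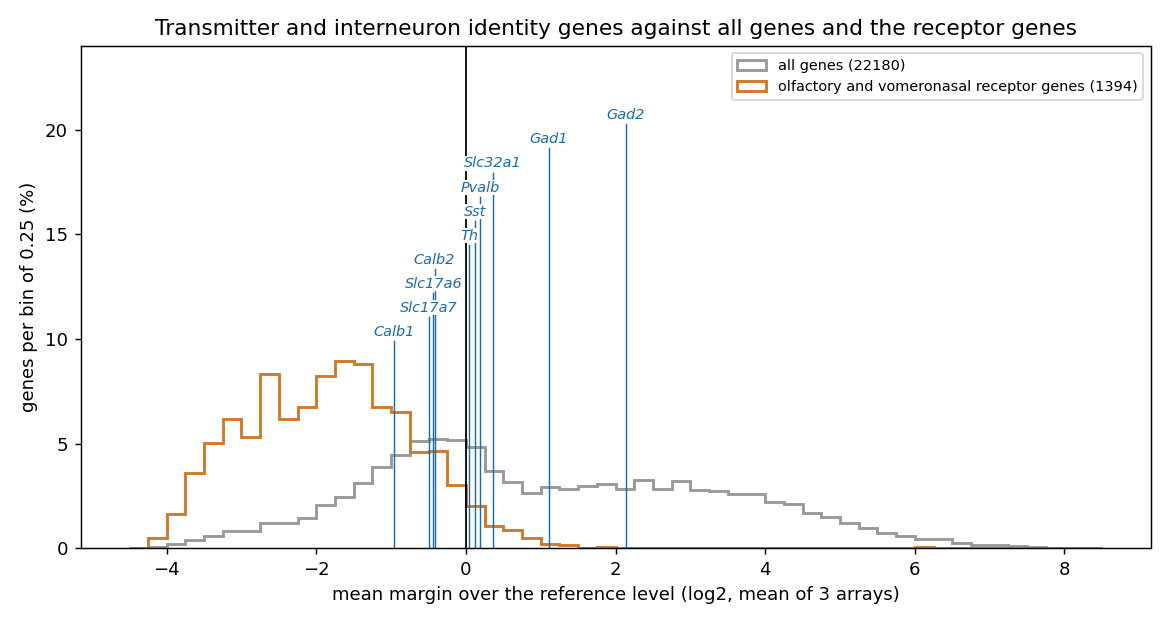
Distribution of the mean margin over the reference level (horizontal axis, log2, mean of 3 arrays) for all genes (grey) and receptor genes (orange), as percent of genes per bin (vertical axis), with the 10 genes as blue lines whose heights only separate the labels. Th, Sst, Pvalb and Slc32a1 lie between 0.04 and 0.36, where receptor genes also lie, while Gad1 (1.11) and Gad2 (2.14) lie beyond nearly all of them.

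The height of the reference level decided most of these calls. With the 90th percentile of the receptors, 6 of the 10 genes were above, against 66.7% of all genes. With the 99th percentile only Gad2 was above, against 44.9% of all genes. When the reference was taken from 142 probe sets of genes for defensins, bitter taste receptors and keratin-associated proteins, Gad2 again was the only one of the 10 above, against 43.5% of all genes. Being higher than the reference level on each of the 3 arrays, with no test, held for 6 of the 10 genes and for 59.6% of all genes. Exceeding the 99th percentile on each array held for 1 of the 10, Gad2, and for 46.6% of all genes. Slc17a6, Slc17a7, Calb1 and Calb2 were above under 0 of the 15 settings.

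**Figure D3:**
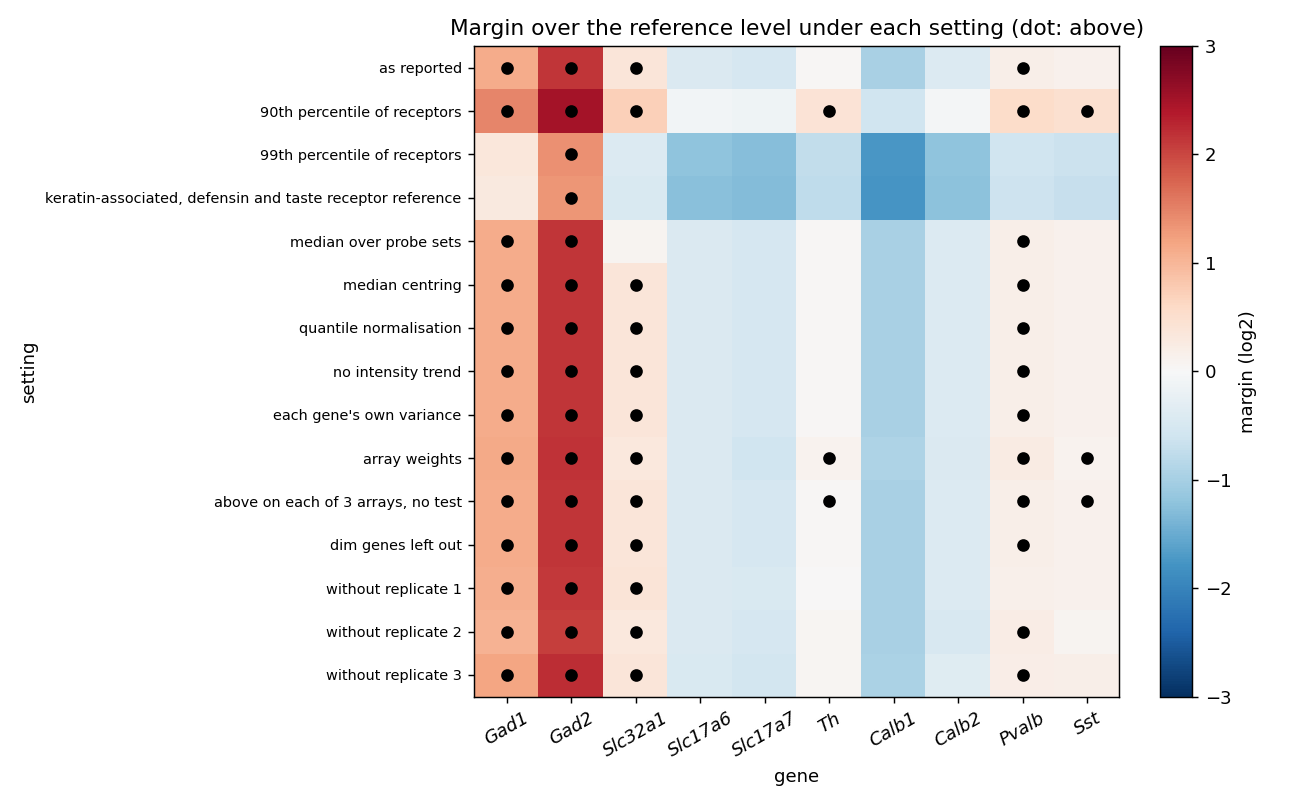
Margin over the reference level (colour, log2) of the 10 genes (horizontal axis) under the 15 settings (vertical axis), with a black dot where the gene was called above. Gad2 has a dot in every row, Gad1 in 13 and Slc32a1 and Pvalb in 12 each.

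The SDs of the 10 genes over the 3 arrays ran between 0 for Sst and 0.16 for Slc17a7, with a median of 0.069. Over the 10469 genes with means in the same signal range the median SD was 0.036, and 8 of the 10 genes exceeded it. In 9 of the 10 genes at least 2 arrays held exactly equal values, as in 75.0% of all genes and 73.0% of those in that signal range. Such ties make an SD understate the true spread, and the p-values from each gene's own variance rest in part on such SDs. A limma F test of each gene's variance over the variance of genes of like signal called 0 of the 10 genes and 0 of 22180 genes (0%), also at an unadjusted p under 0.05. Because the shared variance it relies on was estimated from these ties, with only 0.30 prior degrees of freedom, that test says nothing about whether a gene varied.

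Beyond the 10 genes, 157 of 174 other genes of the same pathways and cell types were measured, and the rest were not analysed here. Markers of the labelled cell type were read by the same rule. The lists were chosen with earlier results known, and 11 of 14 mature neuron markers were above too, so these calls do not test the cell type. All 10 neural precursor markers were above the reference level, with a median margin of 5.78, among them the transcription factor gene Sox2 at 11.39 ± 0.073 (log2 mean ± SD, n = 3, as for the values that follow), the intermediate filament gene Nes at 8.50 ± 0.035 and the growth factor receptor gene Egfr at 11.42 on every array. All 10 neuroblast markers were above as well, with a median margin of 3.48, including Dcx, the microtubule protein gene of migrating neuroblasts, at 9.90 on every array. These shares stand beside 59.1% of all genes.

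Transcription factors of the GABAergic lineage were above the reference level in 17 of 20 cases (85%, against 59.1% of all genes), with a median margin of 1.91. They included Gsx2 (7.31 on every array), a specifier of the lateral ganglionic eminence, Dlx2 (9.87 ± 0.046) and Dlx5 (7.98 ± 0.068), homeobox genes known to drive Gad1 and Gad2 expression in the ventral forebrain, and Sp9 (7.37 ± 0.035), a zinc finger gene of interneuron precursors. Sp8, Lhx8 and Nkx2-1, the last being the specifier of the medial ganglionic eminence, had 5.11, 4.56 ± 0.25 and 5.67 ± 0.046 and were not above. Lhx6 (6.26), Sox6 (10.98 ± 0.012), Satb1 (8.76) and Maf (8.16 ± 0.13) of the same list were above, so these calls do not tell the eminences apart. Factors of the glutamatergic lineage were above in 7 of 14 cases (50%, against 59.1% of all genes), with a median margin of 0.34. Neurog2 (7.52 ± 0.083), a proneural gene of cortical progenitors, Neurod2 (6.72), Fezf2 (6.21) and Bcl11b (8.35 ± 0.020) were above. So were Emx2 (8.34 ± 0.14), Cux1 (9.51 ± 0.075) and Cux2 (7.73 ± 0.049). Neurog1 (5.40 ± 0.063) and Neurod1 (5.07 ± 0.18) were not above. Neurod4, Neurod6, Eomes, Tbr1 and Emx1 were not above either, with margins of 0.10, -0.63, -0.04, -0.85 and -0.15.

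The list of GABA turnover and uptake genes also holds glutamine carriers and enzymes of other steps. Of its 11 measured genes, 8 were above (72.7%, against 59.1% of all genes), with a median margin of 5.12. These values therefore do not describe the uptake and breakdown of GABA alone. The GABA transporter gene Slc6a11, expressed mainly by astrocytes, had 12.19 on every array, and Abat, the gene of GABA transaminase, had 10.75 on every array. Aldh5a1 (8.23 ± 0.098), which completes the breakdown to succinate, and the glutamine carrier genes Slc38a1 (11.34) and Slc38a2 (11.26) were above too. The transporter genes Slc6a12 (5.21 ± 0.097) and Slc6a13 (5.25) were not. These are margins over the reference level of different probe sets and do not order the genes by amount.

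Around Th, 8 of 13 genes of catecholamine synthesis, its cofactor and its handling were above (61.5%), close to the 59.1% of all genes, with a median margin of 0.28. The tetrahydrobiopterin genes Pts (8.29 ± 0.033), Spr (7.24 ± 0.12) and Qdpr (7.91) were among them, but Gch1, the entry enzyme of that cofactor pathway, had 4.43 and was not above. The dopamine pathway genes Ddc (5.96, aromatic amino acid decarboxylase), Slc18a2 (5.90, vesicular monoamine transporter) and Slc6a3 (5.87 ± 0.23, dopamine transporter) were above with margins of 0.34, 0.28 and 0.24. Like Th, they lay below the 99th percentile of the receptors on every array. Dbh (margin -0.63) and Pnmt (margin -0.53), which make noradrenaline and adrenaline, were not above.

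Genes of the other transmitters were above in 3 of 9 cases (33.3%, against 59.1% of all genes), with a median margin of -0.60. These were the choline transporter gene Slc5a7 (6.09), the glycine transporter gene Slc6a5 (5.84 ± 0.090) and the vesicular glutamate transporter gene Slc17a8 (6.06 ± 0.037). None of them exceeded the 99th percentile on any array. Chat (5.03 ± 0.20), the gene of acetylcholine synthesis, and the serotonin synthesis genes Tph1 (4.65) and Tph2 (4.49 ± 0.093) were not above.

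Other interneuron peptides and subtype markers were above in 6 of 17 cases (35.3%, against 59.1% of all genes), with a median margin of -0.05. Npy, a peptide gene often expressed with Sst, had 7.08 on every array, Reln, the gene of a secreted guidance protein, 6.84 on every array, and Ndnf, a marker of neurogliaform cells, 7.96 ± 0.15. Htr3a, the serotonin receptor gene that marks interneurons of the caudal ganglionic eminence, had 7.98 ± 0.058. These 4 genes exceeded the 99th percentile of the receptors on each array. Vip (margin -0.62), Cck (margin -0.66) and Tac1 (margin -1.15), further peptide genes of interneuron classes, were not above.

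Of the other EF-hand calcium-binding genes, 8 of 17 were above (47.1%, against 59.1% of all genes), with a median margin of 0.07. The glial gene S100b had 7.96 ± 0.040 and Necab2, the gene of a neuronal calcium-binding protein, 8.40 on every array. Scgn, the gene of secretagogin, which marks olfactory bulb interneurons, had 4.55 ± 0.13 and was not above, nor was Ocm, the close relative of Pvalb, at 4.34 on every array.

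Markers of cells that the dissection could have carried along were counted beside the Gad1 and Gad2 signals. Of 14 mature neuron markers, 11 were above (78.6%, against 59.1% of all genes), and margins over the 14 ran between -0.32 and 6.36. Those above included Rbfox3 (7.01) and Snap25 (8.57), and the neurofilament genes Nefl (5.58 ± 0.036), Nefm (5.31 ± 0.011) and Nefh (5.61) were not above. Of 9 striatal projection neuron markers, 5 were above (55.6%, against 59.1% of all genes), including Rgs9 (8.32 ± 0.081) and Pde10a (7.67 ± 0.088), while the dopamine receptor genes Drd1 (3.78 ± 0.0066) and Drd2 (5.51 ± 0.16) were not. Of 13 microglia, endothelial and ependymal markers, 4 were above (30.8%, against 59.1% of all genes): Cx3cr1 (6.66 ± 0.27), P2ry12 (6.05 ± 0.16), Kdr (6.84 ± 0.064) and Foxj1 (7.86 ± 0.024). Their partners in the same list were not above, with margins of -0.90, -0.08 and -0.03 for the microglial genes Aif1, Csf1r and Tmem119, and of -0.33, -0.51 and -0.15 for the endothelial genes Pecam1, Cldn5 and Cdh5. The ependymal genes Dnah5, Rsph1 and Hydin had margins of -0.06, 0.03 and -0.22 and were not above either. The part of such cells in the Gad1 and Gad2 signals was not tested.

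**Figure D4:**
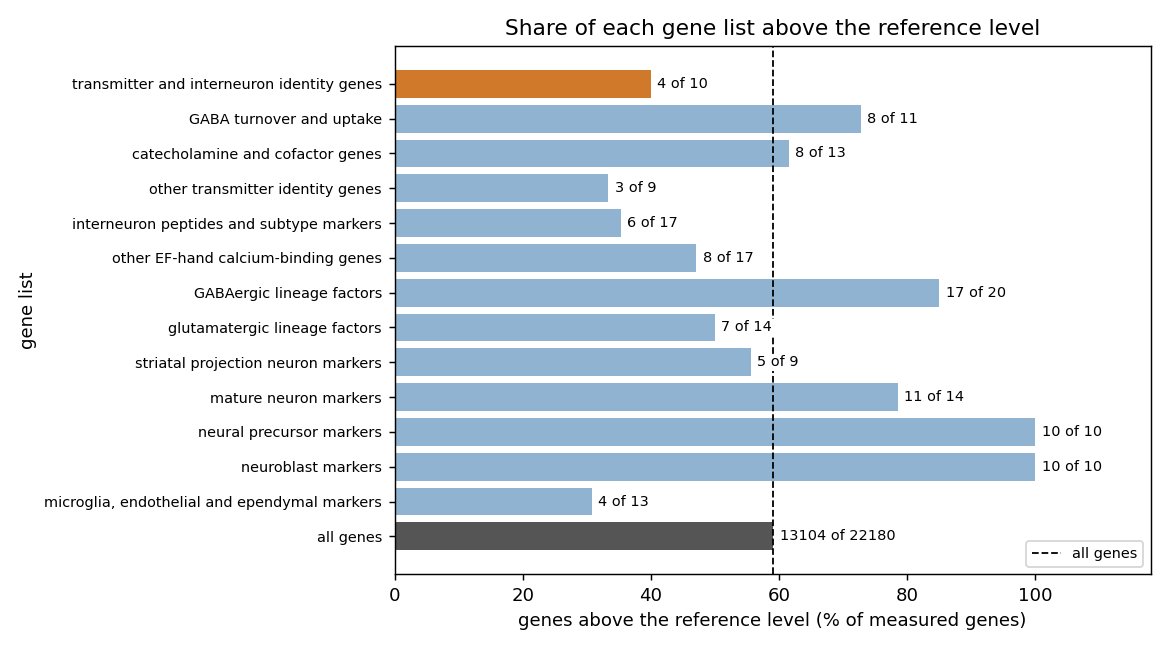
Share of measured genes above the reference level (horizontal axis, percent) for the 10 transmitter and interneuron identity genes (orange), 12 other gene lists (blue) and all genes (dark grey, dashed line at 59.1%), with counts beside the bars. The identity genes stand at 4 of 10, the GABAergic lineage factors at 17 of 20 and the other transmitter genes at 3 of 9.

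Promoter windows of 8 of the 10 genes were read from RefSeq (GRCm38.p6, 250 bases before to 50 after the start). Calb1 and Calb2 were not among them. The cyclic AMP response element TGACGTCA, which binds CREB and was first described in the somatostatin gene, was found in 588 of 32851 windows (1.79%), both strands searched, and among the 10 genes in those of Th and Sst. The windows are shown because their element can be read directly, in capitals, at positions -45 to -38 for Th (chr7:142899946-142900245, minus strand) and -48 to -41 for Sst (chr16:23890795-23891094, minus strand), counted from the start as +1.
Th: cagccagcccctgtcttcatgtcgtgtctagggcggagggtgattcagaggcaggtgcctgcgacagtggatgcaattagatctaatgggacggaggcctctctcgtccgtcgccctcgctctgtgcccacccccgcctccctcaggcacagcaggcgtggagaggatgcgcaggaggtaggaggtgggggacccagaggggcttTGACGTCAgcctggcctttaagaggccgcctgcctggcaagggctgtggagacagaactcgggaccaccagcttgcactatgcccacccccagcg
Sst: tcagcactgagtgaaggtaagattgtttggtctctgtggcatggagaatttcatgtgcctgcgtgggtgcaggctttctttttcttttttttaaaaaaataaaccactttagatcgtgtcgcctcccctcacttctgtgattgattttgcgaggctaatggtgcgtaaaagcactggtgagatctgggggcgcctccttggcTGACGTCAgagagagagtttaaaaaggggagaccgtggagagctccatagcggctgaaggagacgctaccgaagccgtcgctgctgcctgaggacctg

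Other motifs were searched in the same windows on both strands. The homeodomain core TAATTA, held by 5.29% of all windows, was found in 1 window of Slc17a6. The TATA box letters TATAAA, held by 13.6%, were found in that of Gad1 only on the strand opposite to the gene, where the window reads TTTATA. The E-box CAGCTG, held by 16.3%, was found in none of the 10 windows read. A match describes letters in this window and is neither a site nor a cause of a signal.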

How the data were processed

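Gene expression was measured on 3 arrays of 1 group. The deposited values are log2 signals for 41345 probe sets, made by the authors with RMA per the submitters' processing notes; version and options are not given in the sources used here, and probe-level files were not used. GEO's platform annotation named 23521 probe sets with 1 symbol, 1814 with several and 16010 with none; only those with 1 symbol were used. Genes with several probe sets (1082) took the one with the highest mean. The margin over the reference level was tested with limma (lmFit and eBayes with an intensity trend, one-sided, Benjamini-Hochberg over 22180 genes). The pooled SD was 0.13 to 0.16 for the 10 genes, and the reference level itself varied by 0.090 (SD) between arrays; its sampling error was not modelled. Steps were tested on simulated data with independent noise of the same SD for all genes. Those data lack the ties seen here, so no conclusion on the calls is drawn from them. The genes and lists were chosen with earlier results of these data known. All 10 genes are named. Of most other lists, up to 6 genes above and 4 not above are named, in the order written. More are named of the GABAergic lineage factors. All measured genes are named of the glutamatergic lineage factors and of the microglia, endothelial and ependymal markers. Cux2, Neurod4, Neurod6, Eomes, Tbr1, Emx1, Lhx6, Sox6, Satb1, Maf, Rsph1 and the further microglia, endothelial and ependymal markers were added after their values were seen. R 4.3.3, limma 3.58.1 and matplotlib 3.10.9 were used. Alternatives changed the reference, probe sets, scaling, model, call rule, dim-gene filter and arrays.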

Additional observations from a re-analysis of the deposited data

How the results depend on the processing

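The count of identity genes above the reference level was 4 and lay between 3 and 4 when each array was left out, the call of Pvalb ending without replicate 1. Over all 22180 genes, 13104 were above with all arrays, and 12504, 12961 and 13023 without replicates 1, 2 and 3. The count of identity genes was 6 with the 90th percentile (66.7% of all genes) or when a signal above the level on each array sufficed (59.6%). It was also 6 with array weights (13642 of 22180 genes), and 3 with the median over probe sets (12984 of 22180 genes). It fell to 1 with the 99th percentile (44.9% of all genes) and to 1 with the keratin-associated, defensin and taste receptor reference (43.5%). Under these references the margins turned negative for Slc32a1 (-0.42 and -0.46) and for Pvalb (-0.59 and -0.63). With the 90th percentile the glutamatergic lineage factors had 11 above, the striatal markers 8 and the microglia, endothelial and ependymal markers 10. With the 99th percentile, catecholamine genes had 5, other transmitter genes 0 in limma (0 at an unadjusted p under 0.05), striatal markers 3 and microglia, endothelial and ependymal markers 1. With the keratin-associated, defensin and taste receptor reference, these were 5, 0 (0 unadjusted), 3 and 1, the interneuron peptides had 3 and the EF-hand genes 5. All other counts stayed within 1.5 times. Median centring cannot change a margin. Array weights fell almost wholly on array 1 (33.5, against 0.16 and 0.19) and their estimation did not converge. The test between arrays made 0 calls among the 10 genes in each of its 6 settings (limma, 0 at an unadjusted p under 0.05). No paired analysis was possible because all arrays form 1 group.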

Other observations

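Many probe sets shared exactly the same value within an array as well as between arrays. The 41345 probe sets held 23211, 26020 and 25253 distinct values on arrays 1, 2 and 3. On array 1, the signal of Calb1 was held by 178 other probe sets, that of Th by 94, that of Sst by 55 and that of Gad1 by 26. The signals of Gad2, Slc17a6, Slc17a7 and Calb2 were shared with 0 other probe sets on every array. Among the receptor genes of the reference, Vmn1r233 stood apart at a mean of 11.86, a margin of 6.23, against 1.81 for the next, Olfr1360; both were chosen after their values were seen.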
